A study of Mus musculus with 10 samples.

Results

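The sine oculis homeobox family encodes homeodomain transcription factors that are switched on in restricted embryonic tissues, and 5 of its genes were examined here among the 21938 protein-coding genes of the mouse annotation. The 5 genes, taken by name, were Six2, Six3, Six4, Six5 and Six6. Each was followed with its gene body and 50 kb on each side through 8 lists of chromatin immunoprecipitation sequencing (ChIP-seq) peak summits, the single base at which a peak is highest. The cells were AB17, a line of immortalized primary hepatocytes from a C57BL/6 mouse with both Arid1a alleles flanked by loxP sites (Arid1a fl/fl), which had been transduced with SV40 large T antigen and an activated H-Ras. Ad-GFP, an adenovirus without Cre, gave the wildtype (WT) cells, and Ad-Cre, an adenovirus carrying Cre recombinase, gave the Arid1a knockout (KO) cells, so that both genotypes shared the floxed alleles and the immortalizing genes. Lists of H3K27me3 and H3K9me3 were made for both genotypes, and those of Arid1a, Brg1, Ctcf and Rad21 for WT cells alone. Each group was 1 library, differences between groups could not be checked against replicates, and no test was made. Loss of Arid1a and the hepatocyte identity of the line could not be checked, because the lists hold neither Arid1a in KO cells nor expression.

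Proteins of this family bind DNA through a homeodomain and a conserved domain next to it, and act with Eya co-activators and Dach co-repressors. Six2 keeps kidney nephron progenitors in a self-renewing state. Six3 and Six6 pattern the forebrain, the eye and the pituitary. Six4 and Six5 form the remaining subfamily, and Six5 lies next to Dmpk, the gene of the myotonic dystrophy repeat. In tissues that do not use them, developmental regulators of this kind are often covered by H3K27me3, the mark written by Polycomb repressive complex 2, which favours CpG-rich starts. SWI/SNF, the remodeler that contains Arid1a and the ATPase Brg1, is known to counteract Polycomb. Ctcf binds a directional DNA motif and halts cohesin, of which Rad21 is a subunit, at loop anchors and domain borders.

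The starts of the 5 genes differed in CpG content. Over 300 bp around the RefSeq start (250 before and 50 after, GRCm38.p6), Six2 held 37 CpG dinucleotides, a number reached by 5.58% of 32851 RefSeq promoters. Six6 held 20, Six5 held 17, Six4 held 16 and 15 at its 2 starts, and Six3 held 14, each above the median of 7. The upstream sequences of Six2, the most CpG-rich start, and of Six4 and Six5, the genes outside an H3K27me3 stretch, are shown to let the starts be compared. Of the genes inside an H3K27me3 stretch, Six2 and Six6 had the most CpG at the start and Six3 the fewest, close to Six4. The Six3 count was taken at its RefSeq start, 7226 bp from its GENCODE start. Whether CpG content goes with the mark was not tested. The printed sequences stop where the first annotated exon begins, and CpG dinucleotides are in capitals. The Six2 sequence lies at chr17:85688275-85688504 on the minus strand and holds 24 CpG in 230 bases. The Six4 sequence lies at chr12:73113457-73113675 on the minus strand and holds 11 in 219 bases. The Six5 sequence lies at chr7:19094294-19094543 on the plus strand and holds 13 in 250 bases.
Six2: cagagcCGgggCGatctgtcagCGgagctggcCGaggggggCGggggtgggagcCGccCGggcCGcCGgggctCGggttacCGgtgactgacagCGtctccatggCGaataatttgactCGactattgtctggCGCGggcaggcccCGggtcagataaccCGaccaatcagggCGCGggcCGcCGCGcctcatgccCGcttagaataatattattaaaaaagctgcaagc
Six4: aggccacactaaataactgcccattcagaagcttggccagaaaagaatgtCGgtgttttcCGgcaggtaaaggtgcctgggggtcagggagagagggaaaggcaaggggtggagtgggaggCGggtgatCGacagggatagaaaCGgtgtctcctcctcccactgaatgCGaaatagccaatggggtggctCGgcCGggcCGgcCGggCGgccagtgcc
Six5: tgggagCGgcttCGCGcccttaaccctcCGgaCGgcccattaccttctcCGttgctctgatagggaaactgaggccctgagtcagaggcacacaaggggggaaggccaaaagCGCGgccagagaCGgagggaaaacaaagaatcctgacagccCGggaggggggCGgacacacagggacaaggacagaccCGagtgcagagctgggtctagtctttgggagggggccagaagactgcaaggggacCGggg

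Next, the 8 lists were counted at each gene. H3K27me3 divided the family. Six2 carried 32 H3K27me3 summits in WT cells and 42 in KO cells, Six3 carried 36 and 35, and Six6 carried 32 and 24. The median coding gene had 4 in WT and 2 in KO cells. In the WT list, 6.65% of coding genes had at least as many H3K27me3 summits as Six2 or Six6, and 4.91% at least as many as Six3. Six4 had 2 in WT and 0 in KO cells, and Six5 had 2 and 1, none of them inside the gene or within 20 kb of it. As counts of single libraries, 32 carries a 95% Poisson interval of 21.9 to 45.2 and 2 one of 0.242 to 7.22, which cover counting error only.

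Arid1a and Brg1 in WT cells divided the genes the other way round. Arid1a had 0 summits at Six2, Six3 and Six6, and 5 at both Six4 and Six5, where the median gene had 5. Brg1 had 0 at Six2, 1 at Six3, 1 at Six6, 9 at Six4 and 7 at Six5, against a median of 5. Ctcf had 8 at Six2, 9 at Six3, 3 at Six4, 20 at Six5 and 5 at Six6, against a median of 9. Rad21 had 3, 6, 8, 15 and 5 in the same order, also against a median of 9. The Six5 window was the richest of the family in both Ctcf and Rad21, and it also held the starts of 5 other coding genes, whereas the Six2 and Six3 windows held no other coding start.

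**Figure D1:**
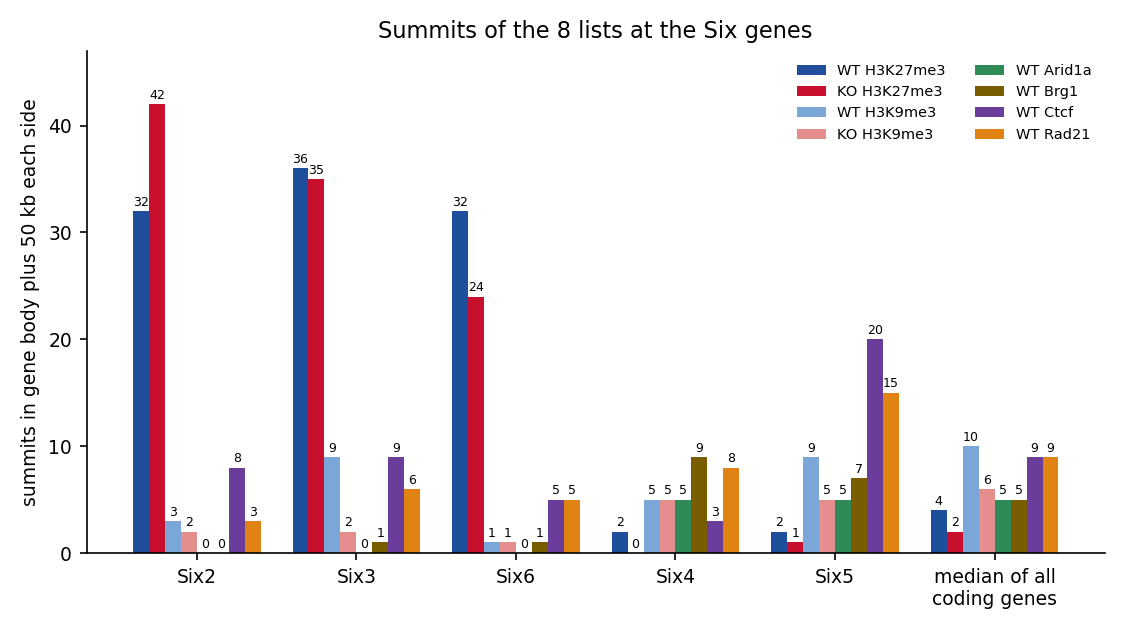
Bars give the number of summits of each of the 8 lists (y axis, count) in the gene body plus 50 kb on each side, 1 library per bar, for the 5 genes and for the median of all coding genes. Six2, Six3 and Six6 show 24 to 42 H3K27me3 summits and at most 1 Arid1a or Brg1 summit, and Six4 and Six5 at most 2 H3K27me3 summits with 5 to 9 Arid1a or Brg1 summits.

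To place the mark within each gene, the strongest summits were located. A peak's −log10 q-value, which MACS2 assigned against input, grows with depth and was used only to rank summits inside 1 list. At Six2 a pair of strong H3K27me3 summits flanked the start. In WT cells they had −log10 q-values of 21.6, 3037 bp into the gene in coding sequence (chr17:85685237), and 21.1, 615 bp before the start (chr17:85688889). In KO cells the pair had 22.1, 2449 bp into the gene in its intron (chr17:85685825), and 14.6, 671 bp before the start (chr17:85688945). No other H3K27me3 summit in the Six2 window exceeded 7.66 in WT or 6.30 in KO cells.

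Six3 carried 1 strong summit in each genotype. It had a −log10 q-value of 22.0 in WT cells (chr17:85616776) and of 15.6 in KO cells (chr17:85616398). Both positions fell in an exon of Six3os1, the transcript that runs opposite to Six3. The annotated starts of Six3 differ: the summits lay 3168 and 2790 bp inside the longest GENCODE model, but 4058 and 4436 bp upstream of the RefSeq start.

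Six6 differed from both. Its strongest WT summit (21.1, chr12:72945881) lay 5989 bp from the start, beyond the end of Six6, in an exon of the non-coding gene Gm26709, and no WT summit lay inside Six6. Its strongest KO summit (16.6, chr12:72940665) lay 773 bp from the start, in the Six6 intron. The strongest WT and KO summits were 5216 bp apart at Six6, 588 bp at Six2 and 378 bp at Six3. The lists hold no peak widths, so it cannot be read from them whether a single wide peak covered both Six6 positions. All 6 strongest summits ranked within the top 0.730% of their lists.

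The strongest summits lay in CpG-rich sequence. Within 500 bp on each side, the WT summit held 49 CpG dinucleotides at Six2, 37 at Six3 and 93 at Six6, and the KO summit 32, 26 and 38. The median was 10 over the whole WT list and 11 over the KO list, and 33 and 34 over the summits that reached 10 in −log10 q-value. The medians over all summits of the 3 windows, 9 to 11 CpG, were close to those of the lists.

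Beside these strong summits the lists had long gaps, on both sides at Six3 and on 1 side at Six2 and Six6. At Six3 no other WT summit lay within 11313 bp upstream or 17627 bp downstream of the strongest, where the median spacing in the window was 1853 bp. At Six2 the downstream gap was 12063 bp in WT and 11769 bp in KO cells, and the upstream gap, to the other strong summit, 3652 and 3120 bp. Beside the strongest Six6 summit the longer gap lay upstream in WT cells (11188 bp, against 3959 bp downstream) and downstream in KO cells (9482 bp, against 3710 bp upstream). Long gaps also lay away from the strong summits. They were longer than those beside the strongest summit at Six3 in KO cells and at Six6 in both genotypes. At Six2 in both genotypes and at Six3 in WT cells, the longest gap of the window was the one downstream of the strongest summit. Upstream of Six3 no KO summit lay between chr17:85579107 and chr17:85603384. Upstream of Six6 no WT summit lay between chr12:72900158 and chr12:72917513. Narrow-peak calling can give a wide, strong peak a single summit, so the number of summits is not a measure of the amount of mark at these places.

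**Figure D2:**
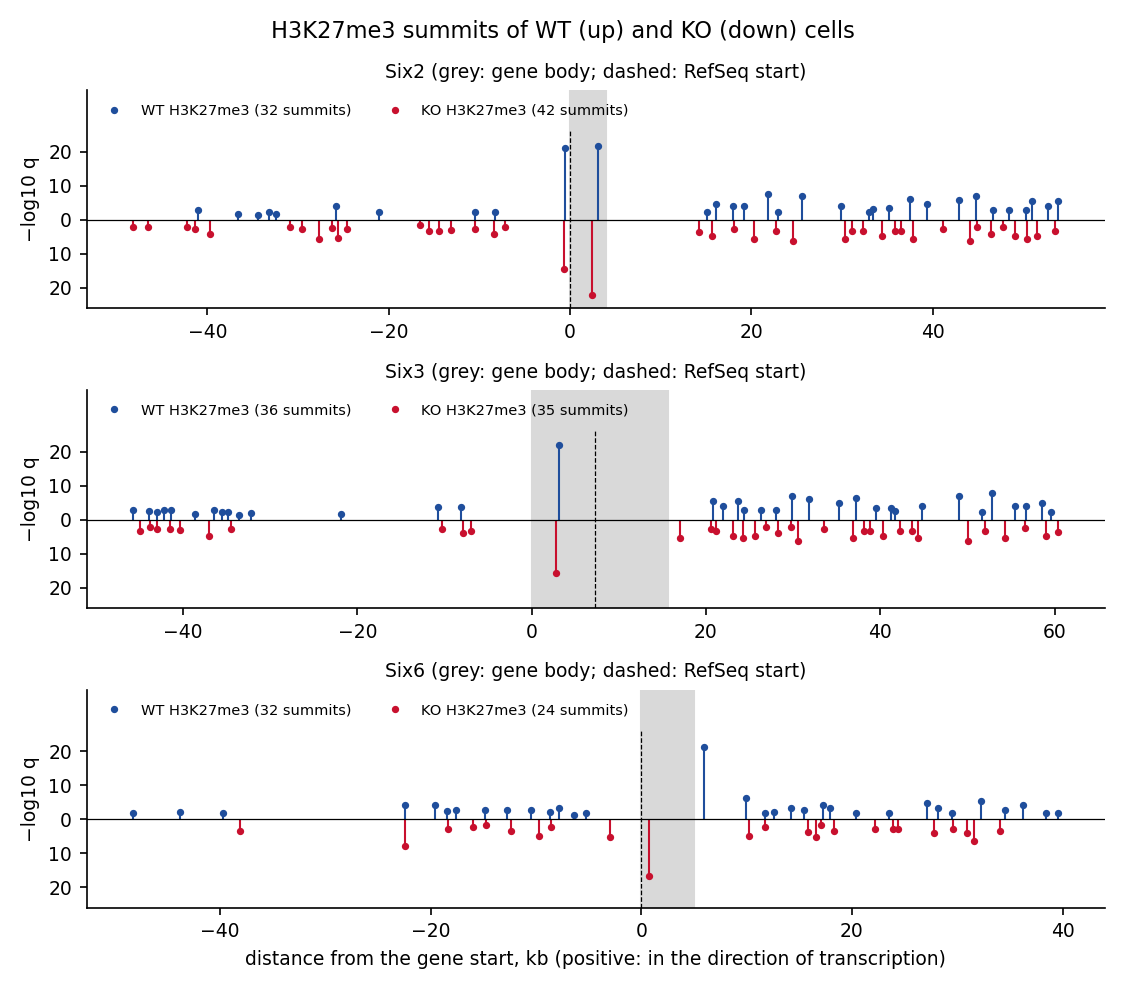
Each line is 1 H3K27me3 summit at its distance in kb from the gene start (x axis), with its −log10 q-value as height, WT upward and KO downward, the gene body in grey and the RefSeq start dashed. Strong summits flank the Six2 start in both genotypes, and at Six3 they stand 4058 (WT) and 4436 bp (KO) upstream of the RefSeq start. At Six6 the 16.6 of KO cells stands inside the gene and the 21.1 of WT cells beyond it.

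The genotypes were then compared gene by gene. The ratio of KO to WT H3K27me3 summit counts was 1.31 at Six2 (95% interval 0.809 to 2.15), 0.972 at Six3 (0.593 to 1.59) and 0.75 at Six6 (0.423 to 1.31). All 3 intervals, exact binomial and covering counting error only, contain 1. For comparison, the whole lists had a ratio of 0.785 (109601 summits in WT and 86050 in KO cells), and the median over the 9380 coding genes with at least 10 H3K27me3 summits was 0.75, with quartiles of 0.5625 and 1. The Six2 interval lay just above the ratio of the whole lists, and those of Six3 and Six6 included it. A ratio as high as that of Six2 was seen at 7.06% of these genes, and one as high as that of Six3 at 26.2%, whereas Six6 sat at the median.

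Of the 3 members with at least 10 summits, 0 were past 1.5-fold in either direction. Over all 9380 genes, 4.56% were past 1.5-fold higher in KO cells and 39.5% past 1.5-fold lower. Divided by the ratio of the whole lists, Six2 reached 1.67, and 1 of 3 was then past 1.5-fold higher, where 11.3% of genes were. On this scale Six3 had 1.24 and Six6 0.955, and 0 of 3 were past 1.5-fold lower, where 21.1% of genes were. Genes with many summits had higher ratios in general. Over the 1978 genes with at least 50 summits the median was 0.879, and 4.35% of them had a ratio at or above that of Six2, 32.7% one at or above that of Six3 and 73.9% one at or above that of Six6. Six4 and Six5 held too few summits for a ratio to be read. With 100 kb on each side the Six2 ratio was 1.08 (60 summits in WT and 65 in KO cells), and with the WT list shortened to the KO length the Six6 ratio was 1.04, above 1.

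**Figure D3:**
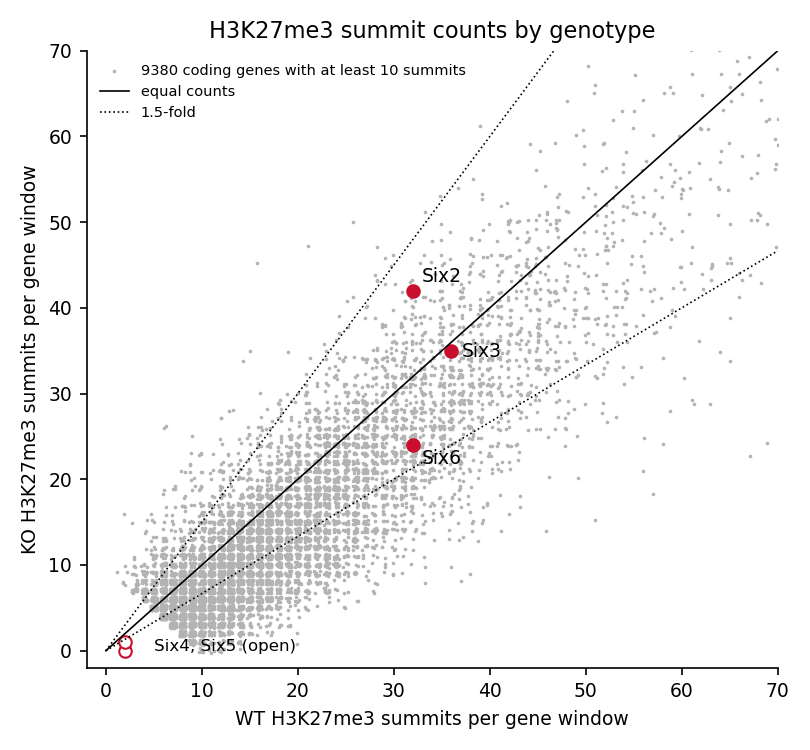
Grey points are the coding genes with at least 10 H3K27me3 summits, plotted by their WT (x axis) and KO (y axis) summit counts with a small jitter, with lines at equal counts and at 1.5-fold; 136 genes with over 70 summits on either axis are not shown. Six2 (32 and 42) lies above the line of equal counts, Six3 (36 and 35) close to it and Six6 (32 and 24) below it, all inside the 1.5-fold lines.

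Positions were shared between genotypes. Of the WT summits, 71.9% at Six2 (23 of 32), 77.8% at Six3 (28 of 36) and 62.5% at Six6 (20 of 32) had a KO summit within 1 kb, against 54.4% over the whole list. Of the KO summits, 59.5% at Six2 (25 of 42), 80% at Six3 (28 of 35) and 75% at Six6 (18 of 24) had a WT summit within 1 kb, against 68.3%. The exact binomial interval of the Six3 WT share, 60.8% to 89.9%, lay above the whole-list value, and those of the other 5 shares included it, as for the Six2 KO share with 43.3% to 74.4%. The windows hold more summits than the median gene, and the part of this density in the shares was not tested.

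Six2 and Six3 are neighbours on chromosome 17, 54.974 kb apart and pointing towards each other, and their windows overlap by 45.026 kb, so their counts are not independent. The joined windows (chr17:85563608-85738274) held 47 WT and 55 KO summits of H3K27me3, a ratio of 1.17 (0.778 to 1.77). The stretch between the genes held 21 and 24. The outer flank of Six3 held 14 and 10, and the outer flank of Six2, upstream of its start, held 10 and 19, a ratio of 1.9 (0.841 to 4.57). In that Six2 flank 13 of the 19 KO summits had no WT summit within 1 kb. With the WT list shortened to the KO length the flank held 7 and 19, a ratio of 2.71 (1.09 to 7.64). Downstream of the Six2 start the ratio was 1.05 (22 and 23 summits). The interval of the upstream ratio thus contains 1 with the full WT list and not with the shortened one, and the flank was singled out after its values were seen.

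Ctcf summits lay between the 2 genes. The joined windows held 11 Ctcf summits, 10 between the genes and 1 inside Six2, and 0 in either outer flank. The 2 strongest had a Rad21 summit close by. The Ctcf summit nearer to Six3 (chr17:85633834, −log10 q-value 31.5) had a Rad21 summit of 20.9 at 25 bp, and the one nearer to Six2 (chr17:85665222, 36.5) had a Rad21 summit of 18.7 at 30 bp. A weaker one lay between them (chr17:85645971, 14.3), with a Rad21 summit of 2.96 within 1 kb. All 3 stood among H3K27me3 summits, the nearest WT summit being 569, 83 and 552 bp away. The nearest Arid1a summit was 359317 bp from the RefSeq start of Six2 and 426737 bp from that of Six3. The only Brg1 summit of the joined windows (3.80) lay 2914 bp upstream of the RefSeq start of Six3.

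**Figure D4:**
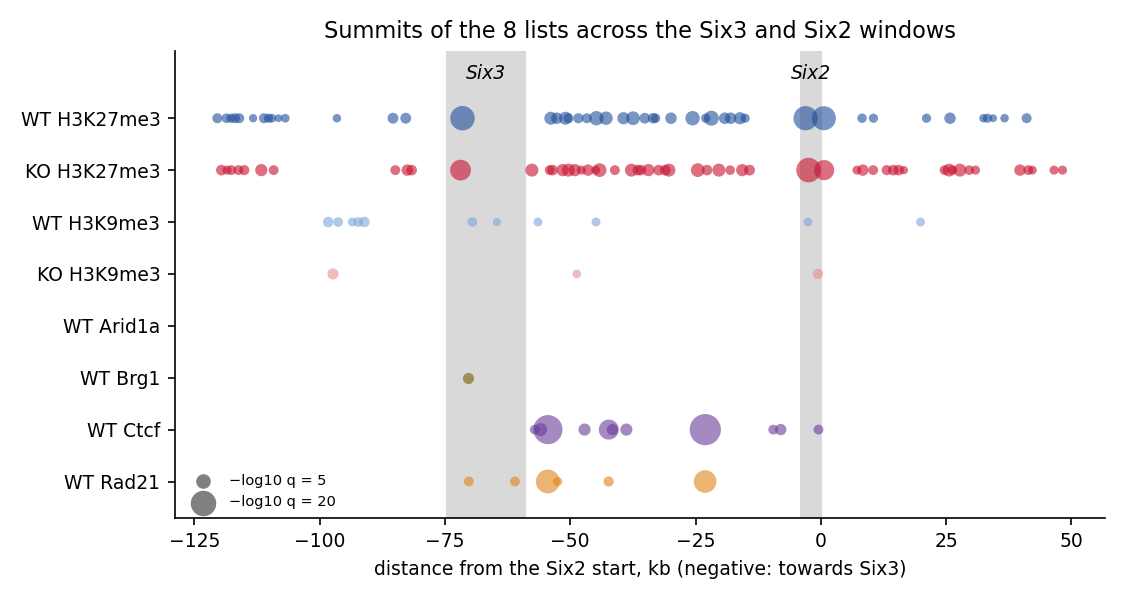
Each disc is 1 summit of the list named on the y axis, placed by its distance in kb from the Six2 start (x axis, negative towards Six3), with an area that grows with its −log10 q-value and gene bodies in grey. H3K27me3 summits stand in both outer flanks and between the genes in both genotypes, with long gaps. Ctcf summits stand between the genes and 1 inside Six2, and the Arid1a row is empty.

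Sequences of matches within 100 bp of Ctcf summits at Six2, Six3 and Six6 are shown because orientation of the motif matters for loop anchors. The Ctcf core, taken as CCA, 2 free bases, AG, 2 free bases and GGC, was searched in both directions up to 100 bp from each summit. It was found at 41.6% of the 16434 Ctcf summits that reached 20 in −log10 q-value, at 21.5% of all Ctcf summits and at 2.29% of positions moved by 2 kb. A weight matrix of 20 bases built from 6723 such matches, used at a score that 5% of moved positions reach, matched 78.2% of the summits of at least 20. Summits that hold the core were among those scored, so this share is not independent of how the matrix was built. The 5 windows held 39 distinct Ctcf summits, and 8 of these had at least 20. All 8 had Rad21 within 1 kb, 2 of 8 held the core and 5 of 8 the matrix match. At the Ctcf summit chr7:19131747 that Rad21 summit had a −log10 q-value of only 1.85. The share of all Ctcf summits of at least 20 with Rad21 within 1 kb is not given here, so the 8 of 8 cannot be called unusual. In the following, the 20 bases of the matrix match are in capitals and read on the strand of the match (GRCm38). The site nearer to Six3 is chr17:85633803-85633862, minus strand. The weaker site is chr17:85645902-85645961, plus strand, and the site nearer to Six2 is chr17:85665121-85665180, plus strand. The Six6 site is chr12:72973286-72973345, minus strand, and it alone of the 4 contains the core.
Ctcf site nearer to Six3: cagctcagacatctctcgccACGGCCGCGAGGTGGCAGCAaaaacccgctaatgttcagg
Ctcf site between them: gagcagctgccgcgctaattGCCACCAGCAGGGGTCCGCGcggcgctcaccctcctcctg
Ctcf site nearer to Six2: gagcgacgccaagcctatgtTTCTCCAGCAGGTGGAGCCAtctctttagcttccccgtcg
Ctcf site downstream of Six6: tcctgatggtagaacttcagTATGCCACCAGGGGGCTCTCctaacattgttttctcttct
The matches of the 2 strong sites between Six3 and Six2 were on opposite strands. The site nearer to Six3, at the lower coordinate, was on the minus strand and the other on the plus strand, so they pointed away from each other. The centre of the match lay 1 bp from the summit at the site nearer to Six3, and 71 bp from it at the site nearer to Six2. The strongest match had a score of 18.5 at Six6, and the others had 8.32, 4.33 and 8.90 in the order printed, against a threshold of 2.76. A match describes letters only and is no proof of binding at that base.

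At Six6 (chr12:72939892-72944899), the architecture proteins lay on 1 side. All 5 Ctcf and all 5 Rad21 summits were downstream, from 27.9 to 38.7 kb from the start. The strongest Ctcf summit of the window (chr12:72976914, −log10 q-value 51.2) lay 37.0 kb downstream with a Rad21 summit of 17.6 at 17 bp. Neither the core nor a matrix match was found within 100 bp of it, and the printed site belonged to the neighbouring summit of 24.3. H3K27me3 summits ran to 39.6 kb downstream in WT cells, 2 of them past the strongest Ctcf summit, and to 34.1 kb in KO cells, with 0 past it. Both of those WT summits had a −log10 q-value of 1.78, and with the WT list shortened to the KO length 0 lay past it in WT cells too. Upstream of Six6, 14 WT and 9 KO summits were listed, and downstream 18 and 15. With the shortened WT list the counts were 11 and 9 upstream and 12 and 15 downstream, so the direction downstream turned. The nearest Arid1a summit to the RefSeq start was 68154 bp away.

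Six5 (chr7:19094594-19098549) showed the opposite arrangement, with proteins at its start and no H3K27me3 nearby. In its coding sequence, Arid1a (2.70) lay 404 bp from the start, Ctcf (4.73) 487 bp, Brg1 (4.49) 671 bp and Rad21 (4.72) 735 bp. The strongest Ctcf summit of the window (51.2) lay 1299 bp before the start, in an untranslated part of Dmpk, with Rad21 (23.1) 1318 bp and Brg1 (3.16) 1537 bp before the start. A Ctcf matrix match on the minus strand stood at chr7:19093271-19093290, within 100 bp of that summit. The nearest H3K27me3 summit to the RefSeq start was 28245 bp away in WT and 28647 bp away in KO cells, inside Rsph6a in both. None of the 5 Arid1a and 7 Brg1 summits of the window reached a −log10 q-value of 5, which only 2.49% and 3.94% of their whole lists did, and the Brg1 summit inside Six5 ranked in the top 7.62% of its list.

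Six4 (chr12:73099609-73113456) had Brg1 (2.14) 434 bp from its start in the coding sequence, and a second, weaker Brg1 summit in an untranslated part of the gene. The 3 Rad21 summits inside the gene stood, 269 bp (2.10), 1867 bp (4.01) and 2717 bp (5.12) from the start. No Ctcf summit lay in Six4 or within 20 kb of it. Most of the Arid1a and Brg1 summits of its window belonged to the neighbourhood rather than to the gene: 4 of 5 Arid1a and 5 of 9 Brg1 summits lay upstream, inside Mnat1, a subunit gene of the CDK-activating kinase. The strongest Brg1, Ctcf and Rad21 summits of the window lay over 50 kb downstream.

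**Figure D5:**
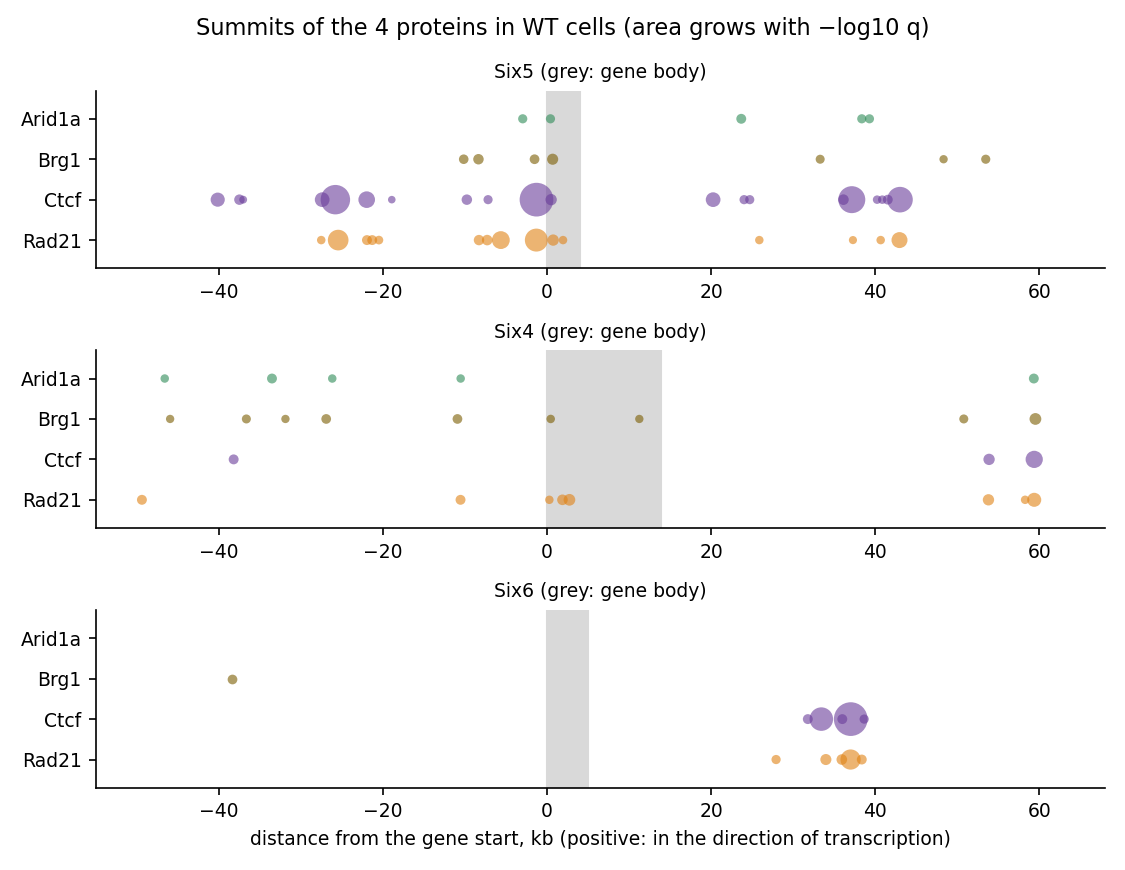
Discs show the Arid1a, Brg1, Ctcf and Rad21 summits of WT cells (rows) at their distance in kb from the gene start (x axis) for Six5, Six4 and Six6, with areas that grow with the −log10 q-value and the gene body in grey. At Six5 all 4 rows have a summit inside the gene close to its start, at Six4 Brg1 and Rad21 do, and at Six6 Ctcf and Rad21 appear between 27.9 and 38.7 kb.

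The scarcity of SWI/SNF summits at Six2, Six3 and Six6 was set against other genes. Arid1a and Brg1 together had 0 summits at Six2, 1 at Six3 and 1 at Six6, against 14 at Six4 and 12 at Six5. At most 1 was found at 18.2% of all coding genes, and at 12.1% of the 6256 genes with at least 20 H3K27me3 summits. The lists themselves were uneven along the genome. Arid1a had 21.7 summits per Mb on chromosome 17, 13.0 on chromosome 12 and 19.1 on chromosome 7, against 25.8 over all chromosomes, and Brg1 had 27.5, 17.2 and 24.4 against 29.9. The part of these densities in the counts at these genes was not tested.

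H3K9me3, the mark of constitutive heterochromatin, had no more summits than the median gene at any of the 5 genes. The WT list had 3 summits at Six2, 9 at Six3, 5 at Six4, 9 at Six5 and 1 at Six6, and the KO list had 2, 2, 5, 5 and 1, where the median gene had 10 and 6. None of them reached a −log10 q-value of 5, a value reached by 4.13% of the WT and 4.85% of the KO list. Of the 3 genes with at least 10 H3K9me3 summits over both genotypes, 2 were past 1.5-fold lower in KO cells, Six3 with a ratio of 0.222 (0.0234 to 1.07) and Six5 with 0.556 (0.146 to 1.85), where 57.4% of 16187 coding genes were. Relative to the whole lists, the same 2 of 3 were past it, where 53.3% of genes were. Six4 had a ratio of 1 (0.230 to 4.35). At Six3, 5 of the 9 WT summits stood 16.4 to 23.6 kb upstream of the start, where KO cells had 1, at 22.7 kb.

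The partners and related genes of the family were counted over windows of the same rule. Of 12 genes, 5 held at least 10 H3K27me3 summits, where 9380 of 21938 coding genes did. The co-activator gene Eya2 had 87 in WT and 71 in KO cells, the kidney regulator gene Pax2 33 and 24, its relative Pax8 30 and 20, Sall1, a zinc finger gene of nephron progenitors, 34 and 48, and Myog, the myogenin gene, 38 and 29. Their median ratio was 0.763, and 1 of 5 was above 1, Sall1 with 1.41 (0.891 to 2.26). Past 1.5-fold, 0 were higher and 1 lower, Pax8 with 0.667, where 4.56% and 39.5% of the 9380 coding genes were. Relative to the whole lists 1 was higher, Sall1 with 1.80, and 0 were lower, where 11.3% and 21.1% of those genes were. Eya1, Eya3 and Osr1 had 0 in both genotypes, as had 29.7% of coding genes, and Eya4, Dach1, Dach2 and Gdnf had at most 5. Eya2 had the most H3K27me3 summits of the 12, and its gene is also long.

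Finally, the genes most like each member were sought over the 8 counts, by Euclidean distance in log2(count + 1), among coding genes on other chromosomes or over 1 Mb away. Within the family, Six2 and Six3 (1.87) and Six2 and Six6 (1.91) were closest, although Six2 and Six3 share summits. Six4 and Six5 were 2.84 apart, and each of them was 6.69 to 7.95 from Six2, Six3 and Six6. Nearest to Six2 were Tifab (0.723), Gsc (0.821), the goosecoid homeobox gene, and Lmo1 (0.904). Gsc had 35 WT and 31 KO summits of H3K27me3 and no listed Arid1a or Brg1 summit. Nearest to Six3 were Clec4f (0.691), Cd207 (0.870) and Tex101 (0.893), and nearest to Six6 were Rp1l1 (1.19), Gcm2 (1.20) and Kctd15 (1.23). Nearest to Six4 were Bbox1 (0.656), Megf9 (0.686) and Golt1b (0.752), and nearest to Six5 were Zfp46 (0.574), Ybey (0.607) and Map3k10 (0.805).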

How the data were processed

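Summit lists of 8 AB17 libraries were analysed, and the 2 input samples entered only through peak calling. Per the study's methods, bowtie2 was used by the authors for alignment to mm10, SAMtools for discarding reads of low quality, Picard for discarding PCR duplicates and MACS2, with its defaults and the corresponding input, for peak calling. Versions were not given in the sources used here. The deposited lists give 1 summit per peak with a −log10 q-value, none below 1.30 (a q-value of 0.05). Read depth is unknown. A deeper library yields more peaks, and a broad mark is split into many summits, so counts reflect depth, antibody and peak calling as well as the mark.

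Summits were counted in GENCODE vM21 gene bodies plus 50 kb on each side, chromosomes 1 to 19, X and Y, with Python 3.11.15, numpy 2.4.6, scipy 1.17.1 and pysam 0.24.0. Ratios and shares have exact binomial 95% intervals for counting error, although neighbouring summits are not independent. "Past 1.5-fold" needed at least 10 summits over both genotypes. The counting was tested on simulated lists. The members and gene lists were chosen with earlier results of these data known. Named besides the members were 12 network genes, the 3 most similar genes per member, the strongest summit per list, and other summits picked after their values were seen. The weight matrix, CpG counts, and flanks on chromosome 17 were also chosen after seeing the data. Alternatives were other flanks, thresholds, list lengths and counting units.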

Additional observations from a re-analysis of the deposited data

How the results depend on the processing

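No paired analysis was possible because each group held 1 library, and for the same reason no replicate could be left out. The Six2 ratio of KO to WT H3K27me3 summits ranged from 0.909 (number of stretches after merging within 3 kb) to 2.71 (upstream side only with the WT list shortened to the KO length, 1.9 without) and was 1.4 with 20 kb on each side. With the gene body and 2 kb on each side the Six3 ratio was 2, from 1 and 2 summits, and under the other settings 0.714 to 1.25. With summits of at least 5 the Six6 ratio was 1.67, from 3 and 5 summits, with the WT list shortened 1.04, and by summed length of merged stretches 0.554. Relative to the whole lists, 1 member was past 1.5-fold higher instead of 0. With 20 kb the Six4 H3K9me3 ratio was 0, from 1 and 0 summits. Shares depended on the distance by construction. Within 500 bp and 2 kb, they were 43.75% and 87.5% (Six2, WT), 33.3% and 83.3% (Six2, KO), 44.4% and 94.4% (Six3, WT), 48.6% and 97.1% (Six3, KO), and within 2 kb 91.7% (Six6, KO). Among summits of at least 5, they were 50% at Six3 in both genotypes, 33.3% (Six6, WT) and 20% (Six6, KO). At genes with at least 10 summits of the mark, 35 alternative H3K27me3 ratios stayed inside the counting interval of the reported value and 3 did not, and 5 alternative H3K9me3 ratios did and 1 did not. These intervals are wide. Where no construction is named, the cause was not tested. H3K9me3 ratios with summits of at least 5 could not be computed, as no summit was left, and H3K27me3 ratios of Six4 and Six5 with 20 kb, 2 kb or summits of at least 5 had no summit to divide. Depth, which the lists do not give, limits every count.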
